A study of Homo sapiens with 9 samples.

Results

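The aldehyde dehydrogenases (ALDH) are followed here in A375, an established human melanoma line, 7 days after its SPANX genes were knocked down. SPANX proteins belong to the cancer-testis antigens, which are usually restricted to the male germ line. The 10 members are ALDH3B1, ALDH1A3, ALDH1B1, ALDH2, ALDH3A2, ALDH4A1, ALDH6A1, ALDH7A1, ALDH9A1 and ALDH18A1, matched by gene symbol among the 60420 gene IDs that each library lists. They were chosen by being above 0 in these libraries, but not by that alone. ALDH1L2, ALDH16A1 and ALDH5A1 were above 0 in every library too, and why these 3 were left out is not stated. Counts over the members leave out these 3, of which 2 fell and 0 rose in KD 86. Over all genes tested there 17.6% were lower and 18% higher. The family was picked for the much lower level of ALDH3B1 with 1 of the constructs. ALDH3B1 is therefore described without a test in every comparison. Of 19 genes of the superfamily 13 stood above 0, the 10 members in every library, and 6 at 0.

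Transcripts were counted by 3' end sequencing in 3 groups of 3 libraries: an EV control, SPANX KD 86 and SPANX KD 87, the numbers naming the knockdown constructs (KD 86 and KD 87 in what follows). All groups are the same single cell line, and no other treatment is named. Nothing says that the replicates were separate cultures, so the spread that the p-values measure is that between libraries and may be technical. The EV libraries serve as the control of both knockdowns.

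Aldehyde dehydrogenases use NAD or NADP to oxidise reactive aldehydes to carboxylic acids, or to a coenzyme A thioester in the case of ALDH6A1. Some clear aldehydes that arise from alcohol or from membrane lipids, others carry out a step in the metabolism of amino acids, carnitine or retinoic acid. ALDH18A1 works in the reverse sense and reduces glutamate on the way to proline. ALDH activity, to which ALDH1A3 contributes, is known as a mark of tumour-initiating subsets in melanoma.

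Recovered reads ran from 11.31 to 15.57 M per library. The SPANX genes above 0, 2 of 10 listed, summed to 502, 177 and 608 normalised reads in EV, to 103, 36.0 and 42.2 in KD 86 and to 30.5, 24.0 and 40.7 in KD 87. No knockdown library reached the lowest EV value (7.03-fold lower in KD 86, 12.2-fold in KD 87; two-sided exact permutation p = 0.1 for each, the smallest that 3 against 3 allows). Of 10 melanocyte lineage markers 6 were above 0 and MLANA, TYR, DCT and TYRP1 at 0; their sum was 335.1 to 642.9 RPM (reads scaled to a common depth) in EV, 1155.6 to 1672.2 in KD 86 and 746.5 to 1047.9 in KD 87. SOX10 carried most of that difference, with 3594 ± 1997 normalised reads in EV, 15719 ± 3543 in KD 86 and 9667 ± 2261 in KD 87 (SD, n = 3 each). Some of the others had a mean below EV with no call, with log2 fold changes in KD 86 of -0.11 for MITF and -0.78 for PMEL, and in KD 87 of -0.51 for PRAME. Of 6 fibroblast markers all were above 0, summing to 32.1 to 33.6 RPM, 79.2 to 106.3 and 67.4 to 84.3. Of 5 leukocyte markers only LYZ was above 0 (10.9 to 19.7 RPM, 17.4 to 24.1 and 28.0 to 61.5), of 5 epithelial markers only KRT14 (16.5 to 25.0, 3.8 to 8.3 and 23.7 to 41.5) and of 4 endothelial markers only TEK (0.5 to 0.7, 2.6 to 3.5 and listed at 0), with PTPRC, EPCAM and PECAM1 at 0. The part of these shifts in the results on the ALDH genes was not tested.

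ALDH1A3 was the most abundant member and ALDH6A1 the scarcest. A 3' library reads each transcript near its end only, so levels are compared between genes in RPM without division by length. In EV libraries ALDH1A3 had a level of 537 ± 168 RPM (SD, n = 3), ALDH18A1 of 159.5 ± 26.8, ALDH9A1 of 121 ± 17.6, ALDH3A2 of 90.4 ± 11.6 and ALDH7A1 of 85.9 ± 13.3. ALDH3B1 followed at 54.5 ± 5.21 RPM, ALDH1B1 at 41.8 ± 6.93, ALDH2 at 35.9 ± 8.58, ALDH4A1 at 11.2 ± 1.79 and ALDH6A1 at 5.43 ± 1.21. From ALDH18A1 to ALDH7A1 the libraries of neighbours in this order overlapped, as did those of ALDH1B1 and ALDH2, and the other neighbours among the members were apart. In KD 86 ALDH3B1 stood at 4.10 ± 0.689 RPM, between ALDH2 and ALDH4A1, and ALDH9A1, at 146 ± 12.4, had the second highest mean of the members, overlapping ALDH18A1 at 128 ± 14.9. In KD 87 ALDH3B1 kept its place after ALDH7A1, at 30.3 ± 1.14 RPM.

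**Figure D1:**
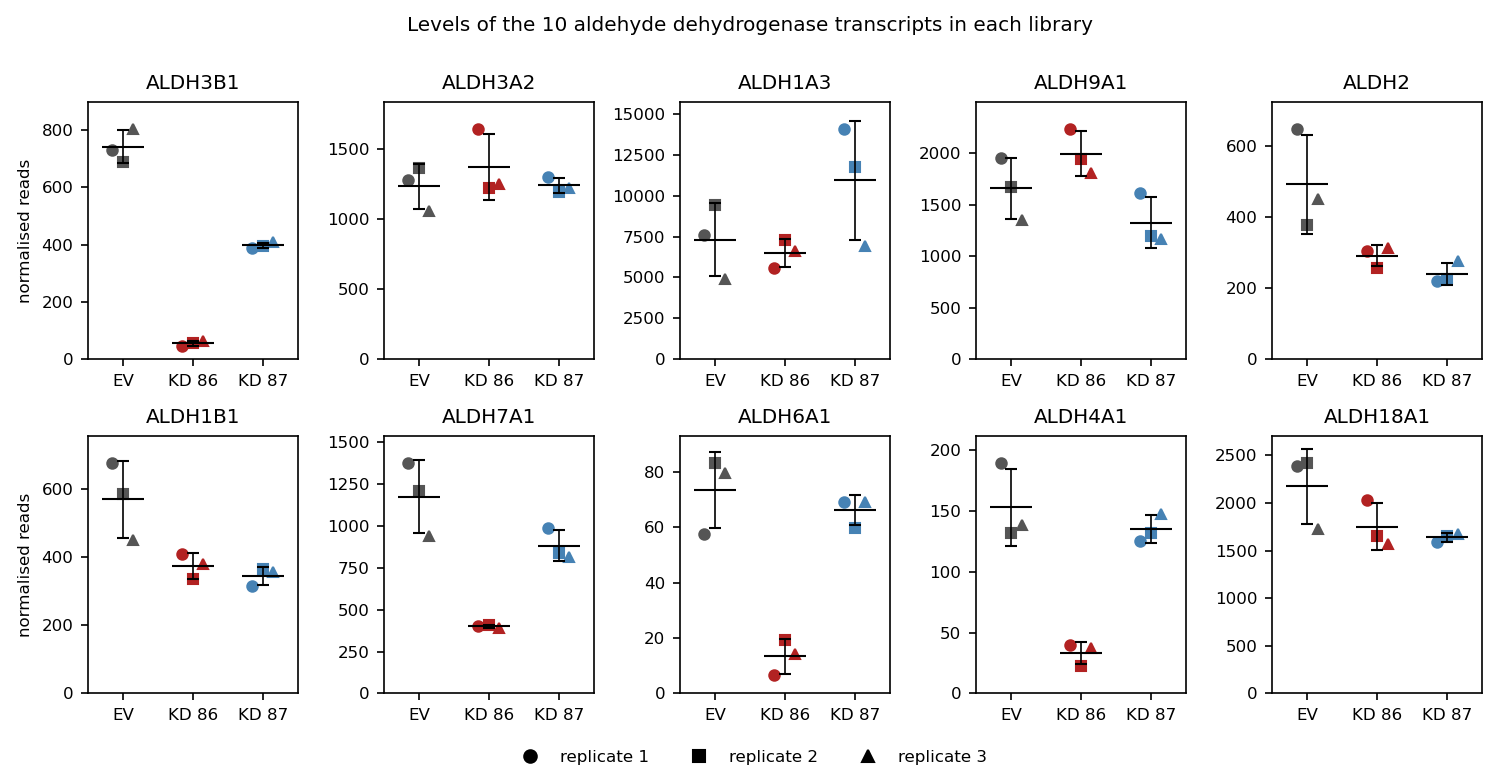
Normalised reads of the 10 members in each library by group (EV, SPANX KD 86, SPANX KD 87), on axes that start at 0. Points are single libraries shaped by replicate number, lines are group means and bars are SD (n = 3). ALDH3B1, ALDH4A1, ALDH6A1 and ALDH7A1 lie lowest in all KD 86 libraries, and ALDH3B1 lies between the other groups in KD 87.

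In KD 86, 5 of the 9 members tested fell and 0 rose. In KD 87, 2 fell and 0 rose. ALDH4A1, ALDH6A1 and ALDH7A1, mitochondrial enzymes of proline, valine and lysine breakdown, fell in KD 86 and differed between the constructs. ALDH2 and ALDH1B1, mitochondrial enzymes that take acetaldehyde, fell by less, and against EV in both knockdowns. Both comparisons use the same EV libraries, and none of these calls on ALDH2 and ALDH1B1 held without EV replicate 1. ALDH1A3, ALDH3A2, ALDH9A1 and ALDH18A1 passed the test in neither. In bulk libraries, fewer cells of a kind and less RNA per cell cannot be told apart.

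Many genes changed by the same test (limma, adjusted p under 0.05 over 13825 genes). In KD 86 it called 35.7% of all genes, 18% higher and 17.6% lower, and in KD 87 10.3%, 5.91% higher and 4.43% lower. Libraries did not overlap for 5 of the 9 members in KD 86, all lower, against 22.9% of all genes lower, 22.5% higher and 45.3% in either direction. In KD 87 they did not overlap for 3 members, all lower, against 14% of all genes lower, 15.3% higher and 29.2% in either direction. The median log2 fold change of the 9 members was -0.59 in KD 86, where that of all genes was -0.04, and -0.33 in KD 87, where that of all genes was 0. For KD 87 against KD 86, 3 of the 9 members were higher and 0 lower, where the test called 25.6% of all genes, 12.7% higher and 12.9% lower. In that comparison libraries did not overlap for 3 members higher and 1 lower, against 22.9% and 22.4% of all genes and 45.3% in either direction.

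Leaving out EV replicate 1, or any single KD 86 library, brought the count of members that fell in KD 86 from 5 to 3. It was 4 without EV replicate 2, EV replicate 3 or any single KD 87 library. In KD 87 the count of 2 became 0 without EV replicate 1, KD 87 replicate 1 or KD 87 replicate 2, and 1 without EV replicate 2, KD 87 replicate 3 or any single KD 86 library.

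**Figure D2:**
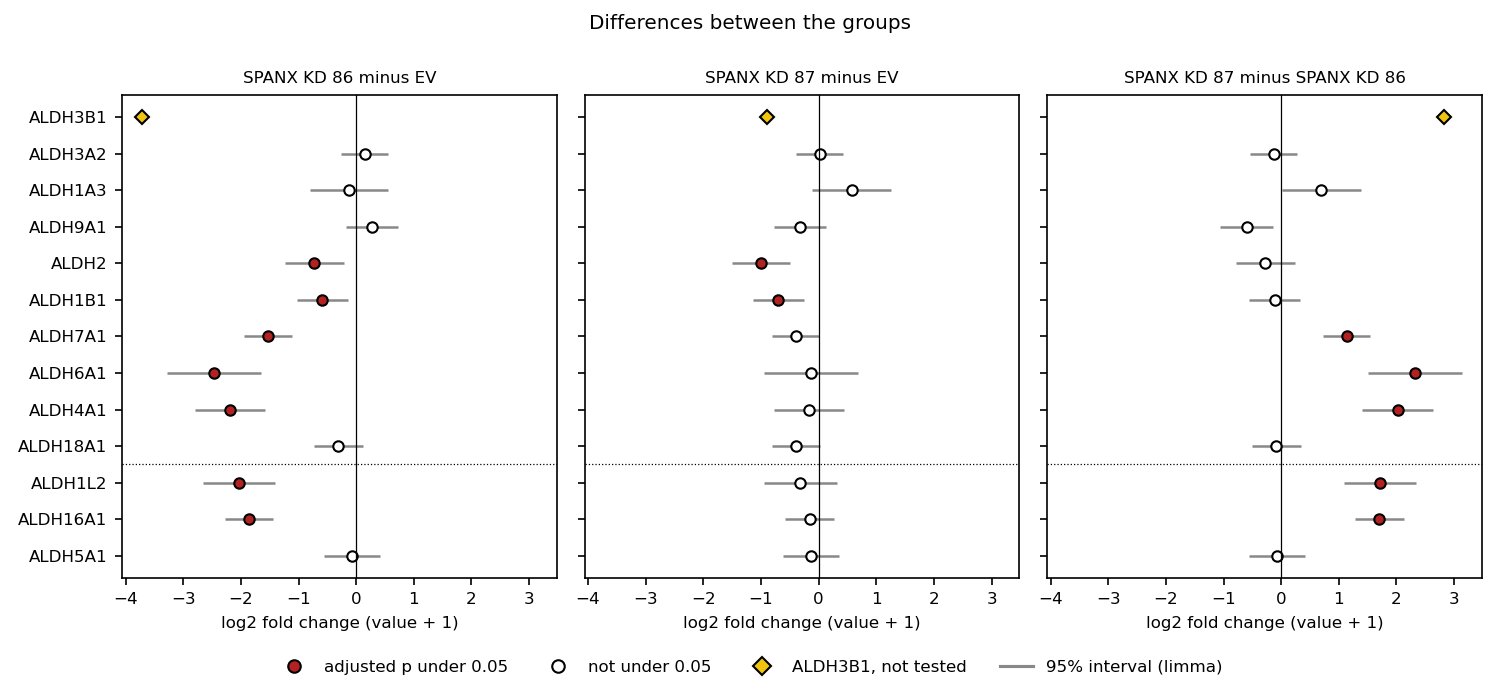
Log2 fold changes (normalised reads plus 1) of the 10 members and, below the dotted line, of the other 3 superfamily genes above 0, for each knockdown against EV and for KD 87 against KD 86. Bars are 95% intervals from limma, filled points passed an adjusted p of 0.05, and ALDH3B1 is shown without a test. ALDH4A1, ALDH6A1, ALDH7A1, ALDH1L2 and ALDH16A1 lie left of 0 in the KD 86 panel, with intervals that reach 0 in the KD 87 panel.

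ALDH3B1 (ENSG00000006534.15) encodes a membrane-associated enzyme that oxidises medium- and long-chain aldehydes, among them products of lipid peroxidation. Its 3 EV libraries held 731, 689 and 803 normalised reads, those of KD 86 47.5, 56.2 and 63.3, and those of KD 87 389, 394 and 408. The 3 groups did not overlap, and KD 87 lay in the middle. The means were 741 ± 57.7 in EV, 55.7 ± 7.94 in KD 86 and 397 ± 10.1 in KD 87 (SD, n = 3 each). On the scale of the value plus 1 the level was 13.2-fold lower than EV in KD 86 and 1.86-fold lower in KD 87, and 7.07-fold higher in KD 87 than in KD 86. The KD 86 level rested on 49, 64 and 54 recovered reads, against 658, 754 and 745 in EV. Its close paralog ALDH3B2 was listed at 0, and no other gene of GENCODE v29 overlapped its last exons.

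RefSeq gives ALDH3B1 2 transcription start sites. Both windows are shown because this transcript lay furthest below EV in the family in KD 86 and 3' reads do not tell the starts apart. Each runs from 250 bases before to 50 bases after the start on the plus strand of GRCh38.p14, at chr11:68008297-68008596 and chr11:68010077-68010376. Capitals mark matches on either strand to the E-box CACGTG, the CCAAT box CCAAT, the GC box GGGCGG, the AP-1 site TGACTCA or the antioxidant response element core TGACNNNGC.
ALDH3B1 upstream start: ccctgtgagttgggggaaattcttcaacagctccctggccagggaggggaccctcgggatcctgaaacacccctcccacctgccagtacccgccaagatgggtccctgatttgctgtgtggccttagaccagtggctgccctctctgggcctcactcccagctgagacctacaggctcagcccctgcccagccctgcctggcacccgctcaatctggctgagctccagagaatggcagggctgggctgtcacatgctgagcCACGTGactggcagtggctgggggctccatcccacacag
ALDH3B1 downstream start: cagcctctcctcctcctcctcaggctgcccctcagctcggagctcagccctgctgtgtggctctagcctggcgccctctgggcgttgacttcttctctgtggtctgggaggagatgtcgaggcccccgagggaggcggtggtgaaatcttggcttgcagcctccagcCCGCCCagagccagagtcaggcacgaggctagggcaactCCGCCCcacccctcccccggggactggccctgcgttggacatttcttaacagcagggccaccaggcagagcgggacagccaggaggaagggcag
The upstream window holds 1 E-box and no GC box, and the downstream window holds 2 GC boxes and no E-box. Over 34943 RefSeq promoter windows of the same length, 7.2% hold the E-box and 44.9% the GC box. GC content was 63.7% upstream and 66.7% downstream, with 4 and 12 CG pairs, beside medians of 58.7% and 14 over all windows. These matches are a description of the letters and no sign that a site is used.

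By Pearson's r of log2 levels over the 9 libraries, among 10757 genes, those most like ALDH3B1 were SRP72 (r = 0.989), ALG10 (r = 0.989), NVL (r = 0.988), ZNF586 (r = 0.987) and TFDP1 (r = 0.987). The points share libraries and fall into 3 groups, so r describes a pattern of group levels. SRP72, a protein of the signal recognition particle, had 4151 ± 108 normalised reads in EV, 1846 ± 136 in KD 86 and 3703 ± 124 in KD 87. TFDP1, the partner of E2F transcription factors, had 5663 ± 836, 1314 ± 90.2 and 3963 ± 269.8 (SD, n = 3 each). Among the members ALDH7A1 (r = 0.966), ALDH4A1 (r = 0.953) and ALDH6A1 (r = 0.946) were closest to ALDH3B1 over the same 9 libraries, and ALDH9A1 (r = -0.57) was the farthest.

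ALDH3A2 (ENSG00000072210.18), the fatty aldehyde dehydrogenase of the endoplasmic reticulum, had 1279, 1361 and 1053 normalised reads in EV. In KD 86 the values were 1639, 1221 and 1249, and in KD 87 1299, 1195 and 1219.7. All groups overlapped. Its log2 fold change was 0.15 in KD 86 (95% interval -0.26 to 0.56, limma adjusted p = 0.554). In KD 87 it was 0.02 (95% interval -0.39 to 0.42, adjusted p = 0.969).

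Of 16 genes that make or feed fatty and sphingolipid aldehydes, 4 rose and 1 fell in KD 86, and 2 rose and 1 fell in KD 87 (median log2 fold change 0.11 in KD 86 and 0.15 in KD 87). The same test called 18% of all genes higher and 17.6% lower in KD 86, and 5.91% and 4.43% in KD 87. With the replicate number as a block the counts were 7 and 2 in KD 86 and 4 and 3 in KD 87. The block also raised the calls over all 13825 genes, to 3731 higher and 3916 lower in KD 86. In KD 87 it gave 2230 higher and 2050 lower. In KD 86, 2 of the 16 rose without EV replicate 1, EV replicate 3 or KD 86 replicate 2, and 2 fell without EV replicate 2. In KD 87, 0 rose and 0 fell without EV replicate 1, KD 87 replicate 1 or KD 87 replicate 2, 1 rose and 0 fell without EV replicate 3, 1 rose without KD 86 replicate 1 or KD 86 replicate 2, with a minimum mean of 5 RPM or without a variance trend, 0 rose and 0 fell with only the groups compared, and 2 fell without EV replicate 2 or KD 87 replicate 3. SGPL1, the lyase that frees a fatty aldehyde from sphingosine phosphate, rose 1.81-fold in KD 86 (limma adjusted p = 0.024). That call was lost with the transcript length trend removed (adjusted p = 0.0547) and without EV replicate 1, EV replicate 3, KD 86 replicate 2 or KD 86 replicate 3 (adjusted p = 0.053 to 0.09). In KD 87 SGPL1 had a log2 fold change of 0.30 (adjusted p = 0.483).

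HACL1, the peroxisomal lyase of alpha-oxidation that releases pristanal, had 1082, 581 and 767 normalised reads in EV, 292, 213 and 239 in KD 86 and 414, 281 and 401 in KD 87. It fell 3.18-fold in KD 86 (limma adjusted p = 0.00111). The fall in KD 87 was 2.18-fold (adjusted p = 0.0239), a call lost without EV replicate 1, EV replicate 3, KD 87 replicate 1 or KD 87 replicate 2 and with only the groups compared (adjusted p = 0.0514 to 0.0959). PHYH, which acts just before HACL1, had log2 fold changes of -0.07 in KD 86 (adjusted p = 0.865) and -0.42 in KD 87 (adjusted p = 0.353; 0.0434 without EV replicate 2).

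ALDH1A3 (ENSG00000184254.16), which makes retinoic acid from retinaldehyde, had 7587, 9408 and 4935 normalised reads in EV. KD 86 gave 5559, 7305 and 6630.4, and KD 87 14066, 11780.0 and 6953. Replicates 1 and 2 of KD 87 lay above all other libraries, while replicate 3 was the lowest library of both the EV and the KD 87 group. The log2 fold change was -0.13 in KD 86 (95% interval -0.81 to 0.55, limma adjusted p = 0.77) and 0.57 in KD 87 (-0.11 to 1.25, adjusted p = 0.26). KD 87 exceeded KD 86 by 1.62-fold (adjusted p = 0.122). That difference passed with the replicate number as a block (adjusted p = 0.0228) and without KD 87 replicate 3 (adjusted p = 0.0423). The antisense gene AC015712.2 overlaps the last exon of ALDH1A3 and held 10.7 to 82.0 normalised reads; whether the counting used strand is not given in the sources used here.

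Of 14 retinoid genes tested, 4 rose and 0 fell in KD 86, beside 18% of all genes higher and 17.6% lower. In KD 87 0 rose and 0 fell, beside 5.91% and 4.43% of all genes. With the block 3 rose and 0 fell in KD 87, where 2230 of 13825 genes were higher and 2050 lower. The median log2 fold change of the 14 was 0.27 in KD 86 and 0.04 in KD 87. The count in KD 86 was 2 without EV replicate 1 and 1 without KD 86 replicate 2, and in KD 87 1 rose without KD 86 replicate 1, with equal library totals, with a minimum mean of 5 RPM or with the length trend removed, and 1 rose and 2 fell without EV replicate 2. The retinaldehyde reductase DHRS3 rose 2.12-fold in KD 86 with groups that overlapped (limma adjusted p = 0.0162; 0.0593 to 0.0687 without EV replicate 1, KD 86 replicate 2 or KD 86 replicate 3). The receptor RARG rose 1.76-fold (adjusted p = 0.0117; 0.0568 without KD 86 replicate 2) and was lower in KD 87 than in KD 86 (log2 fold change -0.67, adjusted p = 0.0355). That last call was lost with equal library totals, without a variance trend and without any single KD 87 library, KD 86 replicate 2 or KD 86 replicate 3 (adjusted p = 0.0508 to 0.137). The retinol transporter STRA6 rose 4.68-fold (adjusted p = 0.0143; 0.0639 without EV replicate 1 and 0.0583 without KD 86 replicate 2) and the retinoic acid hydroxylase CYP26B1 3.56-fold (adjusted p = 0.000274), both named after their values were seen.

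The other retinoid genes next to ALDH1A3 did not pass. The retinol dehydrogenase RDH10, which supplies retinaldehyde, had log2 fold changes of 0.23 in KD 86 (limma adjusted p = 0.339) and -0.05 in KD 87 (adjusted p = 0.894). The carrier CRABP2 had 0.31 (adjusted p = 0.633) and -0.42 (adjusted p = 0.606). For the receptor RARB the values were 0.43 (adjusted p = 0.288) and 0.02 (adjusted p = 0.98).

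ALDH2 (ENSG00000111275.12), the main mitochondrial enzyme for acetaldehyde, had 647, 377 and 451 normalised reads in EV, 303, 256 and 313 in KD 86 and 221, 224 and 276 in KD 87. All 6 knockdown libraries lay under all 3 EV libraries. The fall in KD 86 was 1.65-fold (95% interval of the log2 fold change -1.23 to -0.22, limma adjusted p = 0.0317). It also fell in KD 87, from a mean of 492 ± 139 in EV to 240.3 ± 30.9 (SD, n = 3 each; 95% interval -1.51 to -0.49, limma adjusted p = 0.0223). The KD 86 call did not hold without EV replicate 1 (adjusted p = 0.112), EV replicate 3 (0.0558) or any single KD 86 library (0.0548 to 0.118), nor with only the groups compared (0.0585). That of KD 87 did not hold without EV replicate 1 (adjusted p = 0.0799), KD 87 replicate 1 (0.1) or KD 87 replicate 2 (0.0844), nor with only the groups compared (0.0538).

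ALDH1B1 (ENSG00000137124.7), a close mitochondrial relative of ALDH2, had 677, 586 and 452 normalised reads in EV, 409.7, 336 and 379.9 in KD 86 and 315, 365 and 358 in KD 87. Again no knockdown library reached the lowest EV value. It fell 1.51-fold in KD 86 (limma adjusted p = 0.0405; 0.0152 to 0.148 over the alternatives). It fell 1.63-fold in KD 87 (adjusted p = 0.0489; 0.0132 to 0.184 over the alternatives). The KD 86 call was lost on leaving out any library other than EV replicate 3, and the KD 87 call likewise. Both were lost with only the groups compared, and that of KD 87 also with equal library totals or no variance trend. Between the constructs ALDH2 had a log2 fold change of -0.28 (95% interval -0.79 to 0.23, adjusted p = 0.416) and ALDH1B1 of -0.11 (-0.56 to 0.33, adjusted p = 0.725). ADH5, an alcohol dehydrogenase that also clears formaldehyde through glutathione, had log2 fold changes of -0.36 in KD 86 (adjusted p = 0.34) and -0.10 in KD 87 (adjusted p = 0.844). Of 5 genes tested in the list on alcohol and formaldehyde, 1 rose and 1 fell in KD 86 (ACSS1 and ACSS2, which make acetyl-CoA from acetate, named after their values were seen) and 0 changed in KD 87 (median log2 fold change -0.36 in KD 86 and -0.10 in KD 87). Shares over all genes were 18% higher and 17.6% lower in KD 86, and 5.91% and 4.43% in KD 87. The fall was lost without EV replicate 3 or KD 86 replicate 1 and with only the groups compared (adjusted p = 0.0528 to 0.0692). In KD 86, 2 fell without EV replicate 2 and with the block, where 3003 and 3916 of all genes were lower.

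ALDH7A1 (ENSG00000164904.17), also called antiquitin, oxidises the semialdehyde of lysine breakdown. EV libraries held 1372, 1209 and 941 normalised reads, KD 86 libraries 402, 406 and 392 and KD 87 libraries 989, 840.1 and 816. The KD 86 libraries lay close together and below all others, while KD 87 overlapped EV. The fall in KD 86 was 2.90-fold (SE of the log2 fold change 0.19, limma adjusted p = 0.000308). In KD 87 the log2 fold change was -0.40 (95% interval -0.82 to 0.01, adjusted p = 0.196), and KD 87 exceeded KD 86 by 2.19-fold (adjusted p = 0.00184). The pseudogenes ALDH7A1P1, ALDH7A1P2, ALDH7A1P3 and ALDH7A1P4, which can share its reads, were listed at 0.

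ALDH6A1 (ENSG00000119711.12), the methylmalonate semialdehyde dehydrogenase of valine breakdown, had 57.8, 83.1 and 79.8 normalised reads in EV. KD 86 gave 6.78, 19.3 and 14.1, from 7, 22 and 12 recovered reads, and KD 87 69.4, 59.9 and 69.2. It fell 5.51-fold in KD 86 (SE of the log2 fold change 0.37, limma adjusted p = 0.00086), all libraries below all others. In KD 87 the log2 fold change was -0.14 (95% interval -0.95 to 0.68, adjusted p = 0.84), and KD 87 exceeded KD 86 by 5.02-fold (adjusted p = 0.00147). BBOF1 on the opposite strand overlaps its last exon and was not among the genes tested.

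ALDH4A1 (ENSG00000159423.16) turns the pyrroline carboxylate made from proline into glutamate. Its EV libraries held 189, 132 and 138 normalised reads, KD 86 39.7, 22.8 and 37.5 and KD 87 125, 132 and 148. All KD 86 libraries lay below all others, and KD 87 overlapped EV. The fall in KD 86 was 4.54-fold (SE of the log2 fold change 0.28, limma adjusted p = 0.000358). In KD 87 the log2 fold change was -0.16 (95% interval -0.77 to 0.45, adjusted p = 0.738), and KD 87 exceeded KD 86 by 4.05-fold (adjusted p = 0.000706). For ALDH4A1, ALDH6A1 and ALDH7A1 the calls in KD 86, and those between the constructs, held in every alternative that tested the gene, with each library left out in turn among them.

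The promoter windows of ALDH6A1, ALDH7A1 and ALDH4A1 are shown because these transcripts had the patterns nearest to ALDH3B1 among the members. They are read on the minus strand of GRCh38.p14 (RefSeq), at chr14:74084404-74084703 for ALDH6A1, chr5:126595170-126595469 for ALDH7A1 and chr1:18902506-18902805 for the upstream of 2 starts of ALDH4A1. Capitals mark the same motifs as for ALDH3B1. The window of the downstream ALDH4A1 start, at chr1:18890842-18891141, holds none of these motifs and is not shown. Here too 3' reads do not tell the starts apart.
ALDH6A1: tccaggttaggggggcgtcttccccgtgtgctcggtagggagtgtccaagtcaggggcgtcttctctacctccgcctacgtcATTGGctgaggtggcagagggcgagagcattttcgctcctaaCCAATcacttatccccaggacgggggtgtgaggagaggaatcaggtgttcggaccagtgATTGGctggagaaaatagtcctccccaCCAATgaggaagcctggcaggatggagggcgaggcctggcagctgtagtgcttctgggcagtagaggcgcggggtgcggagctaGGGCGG
ALDH7A1: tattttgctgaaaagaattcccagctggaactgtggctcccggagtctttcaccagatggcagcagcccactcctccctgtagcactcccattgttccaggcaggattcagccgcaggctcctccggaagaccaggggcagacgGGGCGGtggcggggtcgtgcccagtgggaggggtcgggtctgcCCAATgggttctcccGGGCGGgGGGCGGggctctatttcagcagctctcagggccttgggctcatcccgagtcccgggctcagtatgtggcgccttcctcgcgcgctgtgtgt
ALDH4A1 upstream start: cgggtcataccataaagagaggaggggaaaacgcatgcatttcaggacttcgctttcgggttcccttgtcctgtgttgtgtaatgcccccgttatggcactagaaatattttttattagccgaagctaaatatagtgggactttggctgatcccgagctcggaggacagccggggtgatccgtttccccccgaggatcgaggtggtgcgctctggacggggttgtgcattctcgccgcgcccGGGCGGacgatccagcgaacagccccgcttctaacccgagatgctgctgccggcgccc
The ALDH6A1 window holds 4 CCAAT boxes and 1 GC box, the ALDH7A1 window 1 CCAAT box and 3 GC boxes, and the ALDH4A1 window shown 1 GC box and no CCAAT box. The GC box is not particular to these genes. It was in a window of 8 of the 9 members with an entry, ALDH1A3, ALDH3A2 and ALDH9A1 among them. The E-box was in a window of ALDH3B1, ALDH3A2 and ALDH18A1. CCAAT stood in 34.6% of all promoter windows and in a window of 5 of the 9 members with an entry, ALDH1A3, ALDH1B1 and ALDH3A2 being the others. A member counts here if any of its windows holds the letters. The 9 members have 12 windows, so their count and the share of windows are on different scales. The AP-1 letters (5.0% of all windows) and the antioxidant response element core (13.3%) were in no window of a member, which says only that these letters are not in these windows.

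Of 23 other genes of branched-chain amino acid breakdown, the pathway of ALDH6A1, 11 fell and 0 rose in KD 86. There 17.6% of all genes were lower and 18% higher. The 11 include BCKDK and PPM1K, a kinase and a phosphatase that regulate the pathway and carry out no step of it. In KD 87 0 fell and 0 rose, beside 4.43% and 5.91% of all genes. KD 87 exceeded KD 86 for 12 of the 23 and was lower for 0, beside 12.7% and 12.9% of all genes. The median log2 fold change was -0.70 in KD 86 and 0.01 in KD 87, beside -0.04 and 0 for all genes. The KD 86 count was 7 without KD 86 replicate 2 and 17 with the replicate block, where 1423 and 3916 of all genes were lower. In KD 87, 5 fell and 1 rose with the block, 1 fell and 1 rose with the length trend removed, and 2 fell without EV replicate 2. Over all 13825 genes, 2050 were lower and 2230 higher in KD 87 with the block. Without EV replicate 2, 1183 genes were lower and 1367 higher there. Between the constructs the count was 6 without KD 86 replicate 2 and 7 without KD 87 replicate 3.

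PCCB, a subunit of propionyl-CoA carboxylase, fell 3.36-fold in KD 86 (limma adjusted p = 0.000441). ACADSB, an acyl-CoA dehydrogenase of isoleucine breakdown, fell 2.93-fold (adjusted p = 0.000562); both genes were named after their values were seen. HIBADH, which makes the semialdehyde just before the step of ALDH6A1, had a log2 fold change of -0.59 in KD 86 (adjusted p = 0.0624). That change passed with the block (adjusted p = 0.00447) and without EV replicate 2 (adjusted p = 0.0202) or KD 86 replicate 3 (adjusted p = 0.0492). In KD 87 HIBADH had 0.23 (adjusted p = 0.533), 1.77-fold above KD 86 (adjusted p = 0.0216; 0.0583 to 0.0954 without KD 86 replicate 1 or 2 or KD 87 replicate 1 or 3).

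**Figure D3:**
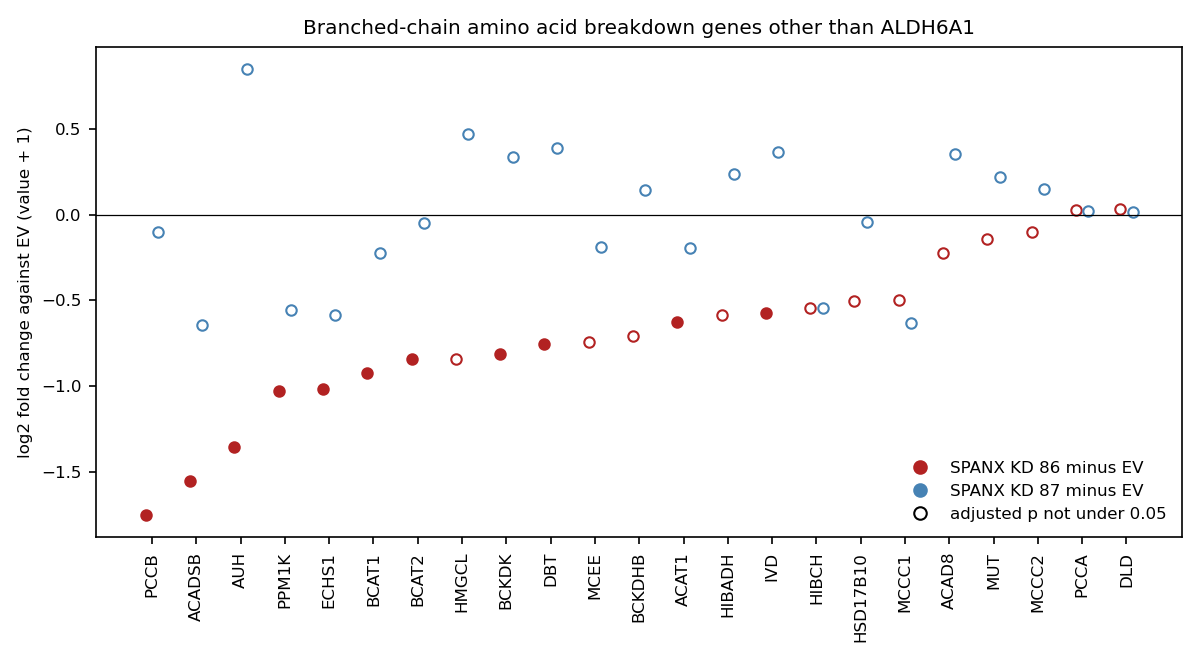
Log2 fold changes against EV (normalised reads plus 1) of the 23 branched-chain amino acid breakdown genes tested, ALDH6A1 left out, ordered by their change in KD 86 and shown beside KD 87. Filled points passed an adjusted p of 0.05, which 11 did in KD 86 and 0 in KD 87. Over all genes the test called 17.6% lower and 18% higher in KD 86, and 4.43% and 5.91% in KD 87.

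ABAT, a transaminase of GABA and beta-alanine, went the other way. It had 57.8, 42.9 and 24.8 normalised reads in EV, 268, 271 and 209.9 in KD 86 and 59.9, 54.0 and 35.6 in KD 87. It rose 6.15-fold in KD 86 (limma adjusted p = 0.000388), with all libraries above all others. In KD 87 the log2 fold change was 0.29 (adjusted p = 0.609; the sign turned without EV replicate 3), and KD 87 was 5.02-fold lower than KD 86 (adjusted p = 0.000953).

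Of 9 genes listed for lysine breakdown and carnitine synthesis, the pathways of ALDH7A1 and ALDH9A1, 6 fell and 0 rose in KD 86. There 17.6% of all genes were lower and 18% higher. The 6 were AASS, GCDH, HADH, TMLHE, SHMT1 and SHMT2. In KD 87 1 fell (HADH) and 0 rose, beside 4.43% and 5.91% of all genes. With the block 5 fell and 0 rose in KD 87, where 2050 of 13825 genes were lower and 2230 higher. The median log2 fold change of the 9 was -0.77 in KD 86 and -0.47 in KD 87. The KD 86 count was 3 without KD 86 replicate 2, and the KD 87 count was 0 without EV replicate 1, EV replicate 3, KD 87 replicate 1 or KD 87 replicate 2 or with only the groups compared, and 2 with the length trend removed. AASS, which opens lysine breakdown, fell 1.83-fold in KD 86 (limma adjusted p = 0.0304; 0.0674 to 0.0788 without EV replicate 2 or any single KD 86 library). In KD 87 it had a log2 fold change of -0.19 (adjusted p = 0.69). TMLHE, which opens carnitine synthesis, fell 1.71-fold in KD 86 (adjusted p = 0.0254; 0.0508 to 0.0783 without EV replicate 1, EV replicate 3, KD 86 replicate 1 or KD 86 replicate 2 and with only the groups compared). In KD 87 it had -0.10 (adjusted p = 0.818).

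ALDH9A1 (ENSG00000143149.12), the trimethylaminobutyraldehyde dehydrogenase of carnitine synthesis, had 1948, 1674 and 1354 normalised reads in EV, 2232, 1938 and 1806 in KD 86 and 1610.0, 1199 and 1162 in KD 87. Replicate 1 was the highest library of each group. The log2 fold change was 0.27 in KD 86 (limma adjusted p = 0.318) and -0.33 in KD 87 (adjusted p = 0.335). All KD 87 libraries lay below all KD 86 libraries (log2 fold change -0.60, 95% interval -1.05 to -0.15, adjusted p = 0.054). The difference passed with the replicate block (adjusted p = 0.00403), with the length trend removed (0.0322), with only the groups compared (0.0384) and without EV replicate 2 (0.0456), EV replicate 3 (0.0444) or KD 87 replicate 1 (0.0431).

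ALDH18A1 (ENSG00000059573.8), which makes the proline precursor pyrroline carboxylate from glutamate, had 2389, 2415 and 1722 normalised reads in EV. KD 86 gave 2028, 1653 and 1566, and KD 87 1589, 1651 and 1675. The KD 87 libraries lay below all EV libraries, but the change did not pass (log2 fold change -0.39, 95% interval -0.82 to 0.03, limma adjusted p = 0.214). Nor did that in KD 86 (-0.31, 95% interval -0.73 to 0.12, adjusted p = 0.233).

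PYCR1, which finishes proline synthesis after ALDH18A1, had a log2 fold change of -0.46 in KD 86 (limma adjusted p = 0.0807; 0.0284 with the block). In KD 87 it had -0.13 (adjusted p = 0.69). OAT, which brings ornithine to the same intermediate, had 0.005 in KD 86 (adjusted p = 0.988) and -0.31 in KD 87 (adjusted p = 0.385). PRODH, the proline dehydrogenase that feeds ALDH4A1, was not among the genes tested. Of 13 tested genes of proline, ornithine and glutamate metabolism, 4 rose and 3 fell in KD 86, beside 18% of all genes higher and 17.6% lower, and 1 rose and 0 fell in KD 87, beside 5.91% and 4.43% (3 and 3 with the block; median log2 fold change 0.01 in KD 86 and -0.05 in KD 87). With the block 2230 of 13825 genes were higher and 2050 lower in KD 87. The 3 that fell in KD 86 became 1 without EV replicate 1 or KD 86 replicate 3. In KD 87, 1 fell without EV replicate 3, and the 1 that rose was lost on leaving out any library other than EV replicate 2, KD 86 replicate 1 or KD 86 replicate 3.

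The summed level of the 10 members was 16877, 17934 and 11928 normalised reads in EV, 12667, 13213 and 12451 in KD 86 and 20672, 17839.5 and 13084 in KD 87. ALDH1A3 made up 46.3 ± 5.66% of it in EV, 50.8 ± 6.08% in KD 86 and 62.4 ± 8.09% in KD 87 (SD, n = 3 each). Without ALDH1A3 the other 9 summed to 8269 ± 1169.5, 6278 ± 719 and 6266 ± 297. The share of ALDH3B1 was 4.97 ± 1.55%, 0.436 ± 0.0676% and 2.40 ± 0.642%. That of ALDH9A1 was 10.7 ± 1.22%, 15.6 ± 1.75% and 7.80 ± 1.08%. No test was made of these sums.

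**Figure D4:**
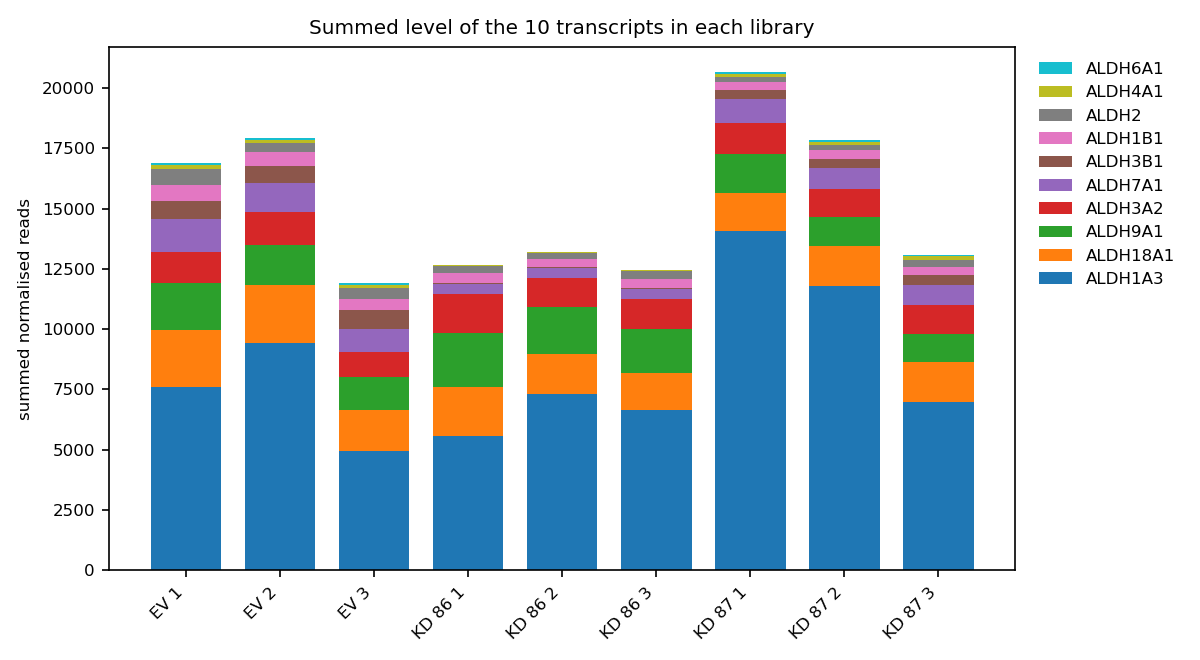
Summed normalised reads of the 10 members in each of the 9 libraries, stacked by gene on an axis that starts at 0. ALDH1A3 is the largest part of every bar, from 41.4% in EV replicate 3 to 68.0% in KD 87 replicate 1.

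The superfamily genes ALDH1L2, ALDH16A1 and ALDH5A1 also stood above 0 and are given beside the members. ALDH1L2, the mitochondrial formyltetrahydrofolate dehydrogenase, had 246, 301 and 177 normalised reads in EV, 52.3, 72.0 and 49.2 in KD 86 and 194, 241 and 145 in KD 87. It fell 4.08-fold in KD 86 (limma adjusted p = 0.000611), and KD 87 exceeded KD 86 by 3.28-fold (adjusted p = 0.00188). ALDH16A1, whose human form is thought to lack catalytic activity, had 1070.1, 1112 and 937 in EV, 240.2, 314 and 307 in KD 86 and 799, 1069.6 and 938 in KD 87. It fell 3.63-fold in KD 86 (adjusted p = 0.000129), and KD 87 exceeded KD 86 by 3.25-fold (adjusted p = 0.000303). In KD 87 against EV the log2 fold change was -0.32 for ALDH1L2 (adjusted p = 0.504) and -0.16 for ALDH16A1 (adjusted p = 0.625).

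ALDH5A1, the succinic semialdehyde dehydrogenase of GABA breakdown, had 213, 183 and 153 normalised reads in EV, 182, 157 and 181 in KD 86 and 199.7, 142 and 158 in KD 87. The groups overlapped, with log2 fold changes of -0.07 in KD 86 (95% interval -0.56 to 0.42, limma adjusted p = 0.831) and -0.14 in KD 87 (-0.62 to 0.35, adjusted p = 0.723). Of 8 genes tested in the list of folate enzymes and other mitochondrial neighbours, 1 rose (ABAT) and 2 fell (MTHFD1 and MTHFD2L) in KD 86. There the test called 18% of all genes higher and 17.6% lower. In KD 87 0 changed, beside 5.91% and 4.43% of all genes. With the block 4 were lower in KD 86 and 2 in KD 87, where 3916 and 2050 of 13825 genes were lower. The median log2 fold change was -0.51 in KD 86 and -0.39 in KD 87. The KD 86 count of falls was 1 without EV replicate 1, EV replicate 3 or KD 86 replicate 2, and 4 without EV replicate 2, and the KD 87 count was 1 without EV replicate 2. ALDH1A1, ALDH1A2, ALDH1L1, ALDH3A1, ALDH3B2 and ALDH8A1 were listed at 0 in all libraries, which need not mean that no read was found.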

How the data were processed

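The authors deposited 1 table of normalised read counts per library. These deposited values are treated as a score and not as raw counts, since the authors scaled each library's reads by a constant and rounded them, as the file headers and the spacing of the values show, and the count test planned for raw counts was not run. STAR, featureCounts, Subread, edgeR and the build hg19 are named in the submitters' processing notes; versions are not given in the sources used here. Each library's scaling constant was recovered from the spacing of its low values (a whole read explains 99.31% to 100% of them), which gives the reads behind each value; the libraries were then rescaled together by the TMM formula. A gene ID listed repeatedly kept its highest value. Of 60420 IDs, 45742 were at 0 everywhere, 400 above 0 only in EV and KD 86 files and 453 only in KD 87 files, which leaves 13825. These were fitted with limma 3.58.1 (R 4.3.3), using log2(level + 1), a variance trend and a mean for every group; p-values, taken from both tails, had the Benjamini-Hochberg correction, with 0.05 as threshold. The fit was checked on simulated libraries drawn independently of each other. That check does not cover the shared deviation of same-numbered libraries given below.

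The members, gene lists and rule for named genes were chosen with earlier results of these data known. The rule names every superfamily gene above 0, chosen genes at a step next to a member, and the 5 genes most like ALDH3B1 among those with a standard gene symbol and a mean of at least 5 RPM. Same-numbered libraries of different groups deviated together (r from 0.215 to 0.726 over 9 pairs and 13751 genes, against -0.65 to 0.14 for 18 other pairs), so blocked values stand beside the results they change; the labels do not say what a number marks. Alternatives were a pseudocount of 5, both the deposited scaling and equal library totals, a minimum mean of 5 RPM, no variance trend, only the groups compared, the block, removal of a trend with transcript length (GENCODE v29, 99.6% of genes) and each library left out. Promoter sequences come from RefSeq (GRCh38.p14), matched for 9 members. From the list on proline metabolism 1 gene is not reported here.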

Additional observations from a re-analysis of the deposited data

Results flagged for a closer look

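The responses to the constructs differed, by the limma test of KD 87 against KD 86, for 5 of 12 ALDH genes tested, each higher in KD 87. The log2 difference was 2.02 for ALDH4A1, 2.33 for ALDH6A1, 1.13 for ALDH7A1, 1.71 for ALDH1L2 and 1.70 for ALDH16A1, and every KD 87 library lay above every KD 86 library in each. Over all genes 12.7% were called higher in this comparison.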

How the results depend on the processing

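Over single-library omissions, the genes called numbered 3059 (without KD 86 replicate 2) to 6014 in KD 86, 368 (without KD 87 replicate 1) to 2550 (without EV replicate 2) in KD 87, where they were also 521 without EV replicate 1 and 608 without KD 87 replicate 2, and 2206 (without KD 86 replicate 2) to 4191 for KD 87 against KD 86. Members that fell numbered 3 to 4 in KD 86, 0 to 2 in KD 87 and 0 to 1 between the constructs. With the replicate number as a block, by which the libraries pair, the genes called were 7647 in KD 86, 4280 in KD 87 and 6094 between the constructs, where 1 member was then lower (ALDH9A1); no call on a member was lost. Using only the groups compared, 3 members fell in KD 86, 0 in KD 87 (857 genes called) and 1 between the constructs. In KD 87, 1 member fell with equal library totals or no variance trend. With the length trend removed, 1 member was lower between the constructs.

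ALDH3B1 stayed between -3.81 and -3.61 (log2) in KD 86 and between -0.95 and -0.84 in KD 87 over the 17 alternatives. Signs turned only for changes that passed no test. Leaving out single libraries gave log2 fold changes in KD 86 of -0.388 to 0.078 for ALDH1A3, -0.19 to 0.048 for ALDH5A1, -0.143 to 0.195 for OAT, -0.059 to 0.683 for CRABP2, -0.381 to 0.111 for PHYH. In KD 87 they were -0.093 to 0.092 for ALDH3A2, -0.231 to 0.002 for PYCR1, -0.033 to 0.561 for ABAT, -0.385 to 0.076 for AASS, -0.221 to 0.001 for TMLHE, -0.113 to 0.029 for RDH10, -0.152 to 0.247 for RARB, -0.38 to 0.095 for ADH5. Between the constructs they were -0.21 to 0.003 for ALDH3A2, -0.161 to 0.025 for ALDH18A1, -0.206 to 0.038 for ALDH5A1. The length trend removed gave 0.193 for PHYH in KD 86, -0.031 for ALDH3A2 in KD 87 and 0.09 for ALDH5A1 between the constructs; the deposited scaling gave -0.016 for OAT in KD 86, and equal totals 0.007 for RDH10 in KD 87. The cause of these shifts was not tested. With a minimum mean of 5 RPM ALDH6A1 was not tested. Depth limits ALDH6A1 most, which rests on 7 to 22 reads per KD 86 library.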
